A study of Mus musculus with 18 samples.

Results

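The S100 genes encode small calcium-binding proteins, and 7 of them were followed across cultured mouse neural stem cells and the astrocytes made from them: S100b, S100a1, S100a13, S100a16, S100a4, S100a6 and S100a11. They were taken by name from a table of 27997 genes, in which each has 1 row. Neural stem cells (NSCs) and astrocytes were profiled by bulk RNA sequencing in 18 libraries, 3 for each of 6 groups. By the study's methods mice were young adults unless stated otherwise, and no age is given for these lines in particular. The tdTomato line came from spinal cord of mice labelled DNGR-1 +/- Tom+/- and the EYFP line from spinal cord of mice labelled DNGR-1 +/- EYFP+/-. In both, Cre expressed from the gene of DNGR-1 (Clec9a), a receptor best known from dendritic cells, had switched on the reporter in ependymal cells or their precursors, so that both are called traced. The third line came from hippocampus and is labelled DNGR-1+/+. The study's methods describe its mice as carrying a Glast-driven Cre, a floxed Huwe1 allele and an EYFP reporter.

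NSCs were grown attached to laminin with EGF, bFGF and heparin and collected on day 4. Astrocytes were collected on day 6, after the NSC medium had been replaced by medium with BMP4 at 20 ng/ml. For that medium the study's methods list no EGF, bFGF or heparin. Added BMP4, absent growth factors and the day of collection cannot be told apart in the change from NSC to astrocyte. All groups are cultures, each line is a single culture line, and the 3 libraries of a group came from successive passages of that line, so that p-values measure the spread between these cultures and not between mice. Tissue, genotype and line cannot be told apart in the comparison of traced with hippocampal cells. In bulk RNA, fewer cells of a type and less RNA per cell cannot be told apart either.

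S100 proteins have a pair of EF-hands, the helix-loop-helix motif that binds calcium, and no enzymatic activity of their own. On binding calcium they open a surface that docks onto partner proteins, and most work as dimers, inside the cell on the cytoskeleton, annexins and p53, or outside it on receptors such as RAGE (Ager) and Tlr4. S100b is abundant in astrocytes and widely used as an astrocyte marker, and it is also found in ependymal cells, oligodendrocyte precursors and Schwann cells. All S100a genes sit on mouse chromosome 3, and S100b lies alone on chromosome 10.

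The promoters of 4 loci are shown first because they carry the pairs and contrasts that the values below describe. Each stretch was taken from RefSeq promoter windows on GRCm38.p6 (250 bases before to 50 after a start) and is written 5′ to 3′ on the plus strand, running from before the start into the gene. All 7 genes had a window, and S100a16 had a pair of them. S100a1, on the minus strand (chr3:90511034-90514392), and S100a13, on the plus strand (chr3:90514435-90524581), are transcribed away from each other, with 42 bases between their annotated starts. The stretch chr3:90514363-90514464 runs from the first 30 bases of S100a1, its 5′ end, through the gap, into the first 30 bases of S100a13. Capitals mark GGCGCC, a GC-rich sequence of the kind that BMP-activated Smads can bind.
S100a1 and S100a13: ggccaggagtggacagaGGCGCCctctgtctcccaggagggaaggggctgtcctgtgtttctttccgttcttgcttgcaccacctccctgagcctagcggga
The promoter of S100a11 (chr3:93520338-93520517) is shown as that of the gene whose difference between lines turned round with fate. Capitals mark TGAGTCA, a form of the AP-1 site TGANTCA, and the GC box GGGCGG.
S100a11: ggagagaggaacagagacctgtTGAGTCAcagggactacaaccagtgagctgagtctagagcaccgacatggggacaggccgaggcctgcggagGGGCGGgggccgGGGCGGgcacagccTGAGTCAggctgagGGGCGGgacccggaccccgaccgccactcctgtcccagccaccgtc
The promoter of S100a4 (chr3:90603620-90603799) belongs to the gene with the highest rise, and its TATA box, TATAAA, is in capitals.
S100a4: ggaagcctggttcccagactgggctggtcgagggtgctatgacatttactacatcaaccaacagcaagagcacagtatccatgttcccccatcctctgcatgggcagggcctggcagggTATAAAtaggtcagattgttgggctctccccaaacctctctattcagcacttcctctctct
The promoter of S100b (chr10:76253586-76253865) belongs to the member that is an astrocyte marker, with CCAAT and its reverse complement ATTGG in capitals.
S100b: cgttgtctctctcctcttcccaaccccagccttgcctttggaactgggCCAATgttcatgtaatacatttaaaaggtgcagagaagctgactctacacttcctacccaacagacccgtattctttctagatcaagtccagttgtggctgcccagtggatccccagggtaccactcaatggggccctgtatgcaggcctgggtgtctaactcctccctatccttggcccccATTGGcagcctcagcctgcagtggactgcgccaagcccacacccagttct

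The RefSeq windows of S100a1 and S100a13 overlap by 204 of their 300 bases, and the same GGCGCC lies 55 bases before the RefSeq start of each, while the coordinates above place it just inside the first exon of S100a1. This sequence, searched on both strands, was present in 11.9% of 32851 RefSeq promoter windows of the same length. TGANTCA was present in 7.81% of them, and S100a11 held it at 136 and at 38 bases before its RefSeq start, with the GC box (35.7% of windows) at 64, 52 and 24 bases before it. A window of S100a16 also held the AP-1 site, as TGAATCA at 192 bases, and a GC box at 30 bases before its start. S100a4 held TATAAA (13.6% of windows) at 31 bases before its start. CCAAT (37.4% of windows) was found in S100b at 202 and 20 bases and in S100a6 at 228 bases before the start. The STAT site TTCNNNGAA, present in 8.30% of windows, was found in no window of the 7 genes. GC content ran from 49.3% in the S100a6 window to 61.7% in that of S100a11, against a median of 52.7% over all windows. These matches describe letters and were not tied to binding of any factor.

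The labels were checked against marker genes. Values are the deposited log2 normalized values, on which 1 unit is a 2-fold difference, and a gene passed the filter where at least 3 of the libraries compared read 3.32 or more. Of 8 astrocyte markers 7 rose, against 42.1% of all genes. Gfap, the intermediate filament of astrocytes, had a mean log2 value of 9.21 in NSCs and 15.74 in astrocytes, and Aqp4, the water channel of astrocyte endfeet, 8.60 and 12.96. Slc1a3 rose by only 0.38 ± 0.06, with overlapping libraries, and Aldh1l1 was not called (0.09 ± 0.11, adjusted p = 0.44). Of 5 NSC and proliferation markers 4 fell and 1 rose. Mki67, a marker of dividing cells, had 12.93 in NSCs and 6.72 in astrocytes, while Sox2, a transcription factor of neural stem cells, went the other way, from 11.74 to 12.80 (1.06 ± 0.07, adjusted p = 1.2e-10). Nes, the filament of neural stem cells, fell in the 18 libraries together but stayed at 13.64 ± 0.20 (SD, n = 3) in hippocampal astrocytes, against 10.97 ± 0.18 (SD, n = 6) in traced astrocytes. Markers of cells in which S100 genes are also strong were followed as whole lists. Of 9 oligodendrocyte lineage markers, 6 passed the filter, 1 rose and 4 fell, and their summed log2 level was 15.79 to 16.09 in NSCs and 13.66 to 15.07 in astrocytes, with Sox10, Mag and Mog below the filter throughout. Of 4 ependymal markers with a row, 3 were tested and all 3 rose, with a summed level of 9.45 to 10.50 and 11.01 to 12.32. Of 3 Schwann cell markers, 2 were tested and Egr2 fell (summed 10.47 to 12.02 and 8.61 to 9.38). Of 4 neuronal markers, 3 were tested and all 3 rose (summed 7.05 to 8.06 and 8.37 to 8.78). Fibroblast markers summed to 4.63 to 5.25 and 4.23 to 5.94, with Col1a2, Dcn and Pdgfrb below the filter throughout and Lum the only 1 of 2 tested to rise. Lum, at 1.49 to 3.51 in NSCs and 1.52 to 4.74 in astrocytes, passed the filter only with astrocyte libraries, so that its rise is a description. Myeloid and dendritic markers summed to 2.45 to 3.02 and 3.68 to 4.90, with 5 of 6 never reaching the filter and Xcr1 past it in astrocytes alone, as was Ccdc153 of the ependymal markers. Endothelial markers summed to 3.82 to 5.14 and 3.33 to 5.61, and Flt1, the 1 gene tested, gave 0.37 ± 0.25 (adjusted p = 0.18). The part of these cells in the S100 values was not tested.

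S100b, the astrocyte marker, read 9.35, 9.57 and 9.67 in tdTomato NSCs, 9.14, 9.29 and 8.98 in EYFP NSCs and 9.08, 9.50 and 9.45 in hippocampal NSCs. In astrocytes it read 11.53, 11.83 and 11.53 in the tdTomato line, 11.09, 11.28 and 11.01 in the EYFP line and 11.23, 11.35 and 11.15 in the hippocampal line. All astrocyte libraries lay above all NSC libraries, and within each fate the tdTomato line lay above the EYFP line with no overlap.

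S100a1, a calcium sensor known best from heart and skeletal muscle, read 4.83, 4.77 and 4.57 in tdTomato NSCs, 5.13, 4.99 and 4.94 in EYFP NSCs and 6.26, 6.46 and 6.36 in hippocampal NSCs. In astrocytes it read 7.13, 7.17 and 7.11 in the tdTomato line, 7.05, 6.98 and 7.25 in the EYFP line and 9.39, 9.28 and 9.23 in the hippocampal line. The hippocampal line was the highest in both fates with no overlap, and the hippocampal NSCs came close to the traced astrocytes. S100a13, which takes part in the release of Fgf1 and Il1a without a signal peptide, read 5.68, 5.26 and 5.62 in tdTomato NSCs, 6.46, 6.14 and 6.09 in EYFP NSCs and 6.53, 6.79 and 6.83 in hippocampal NSCs. In astrocytes it read 8.04, 7.90 and 7.80, then 8.31, 8.34 and 8.53, then 9.41, 9.42 and 9.19, for the same order of lines. In both fates the order was tdTomato, EYFP, hippocampal, with no overlap between lines. S100a16, a member found in most tissues, read 7.76, 7.61 and 7.50 in tdTomato NSCs, 8.56, 8.55 and 8.80 in EYFP NSCs and 9.09, 9.07 and 9.23 in hippocampal NSCs. In astrocytes it read 9.72, 9.51 and 9.43, then 9.59, 9.23 and 9.53, then 10.48, 10.49 and 10.40. The 3 lines stood apart as NSCs, while the values of the tdTomato and EYFP lines overlapped as astrocytes.

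S100a4, also called metastasin or fibroblast-specific protein, binds non-muscle myosin (Myh9). It read 5.49, 5.83 and 5.79 in tdTomato NSCs, 5.93, 5.92 and 5.75 in EYFP NSCs and 6.37, 6.21 and 6.45 in hippocampal NSCs. In astrocytes it read 8.89, 8.54 and 8.73, then 9.06, 8.69 and 8.89, then 11.47, 10.88 and 10.77. The hippocampal astrocytes lay well above both traced lines, and their replicate 1 was the highest library. The fibroblast markers, of which 3 of 5 never reached the filter, summed to between 4.23 and 4.44 in these hippocampal astrocytes and between 4.63 and 5.94 in the other groups, and their part in the S100a4 values was not tested. S100a6, or calcyclin, the partner of Cacybp, was weak: its log2 values lay between 1.43 and 2.20 in the 9 NSC libraries. In astrocytes S100a6 read 4.12, 4.11 and 3.94 in the tdTomato line, 3.92, 3.03 and 3.38 in the EYFP line and 6.09, 5.03 and 4.99 in the hippocampal line. S100a11, or calgizzarin, a partner of Anxa1, read 9.49, 9.52 and 9.38 in tdTomato NSCs, 9.42, 9.34 and 9.56 in EYFP NSCs and 8.61, 8.32 and 8.47 in hippocampal NSCs. In astrocytes it read 11.21, 11.03 and 11.09, then 11.18, 11.10 and 10.95, then 11.84, 11.43 and 11.30. The hippocampal line was the lowest as NSCs and the highest as astrocytes.

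**Figure D1:**
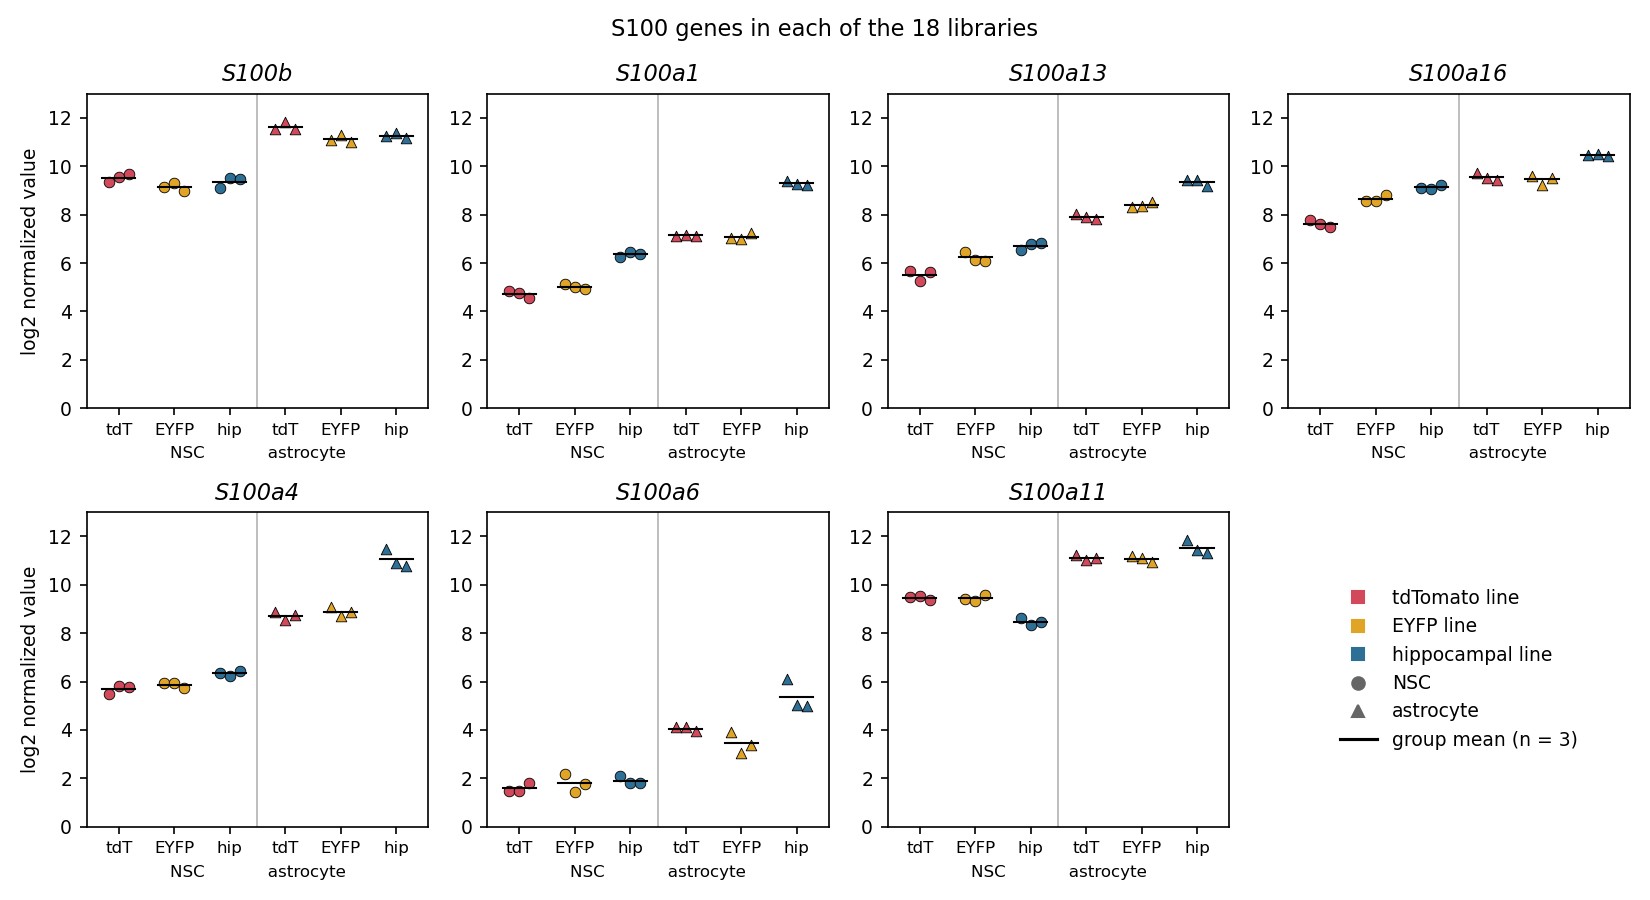
Log2 normalized value (vertical axes) of each of the 7 S100 genes in the 18 libraries; points are libraries, colours lines, circles NSCs and triangles astrocytes, and short black lines the means of 3 libraries. All 7 genes are higher in astrocytes within each line, and S100a11 is the gene for which the hippocampal line is lowest as NSCs and highest as astrocytes.

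S100a4 and S100a11 share sequence with other loci. Gm42674, a readthrough gene on the same strand, covers 302 of the exon bases of S100a4, or 51.7% of them, and 44.8% of all 75-base stretches of S100a4 transcripts occur in it. The row of Gm42674 itself read between -0.46 and 1.57. For S100a11, 37.8% of 75-base stretches also occur in the pseudogenes Gm12854 and Gm7665. How the counting divided such reads is not known, so the levels of S100a4 and S100a11 are uncertain to that extent. The other 5 genes shared no stretch of this length with another gene.

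The 6 genes whose NSC values passed the filter all rose from NSC to astrocyte over the 3 lines together (limma with a trend, line as covariate, Benjamini-Hochberg adjusted over 15448 genes). Of all genes tested, 42.1% were called higher in astrocytes and 39.8% lower, so that being called is common here. S100a4 rose most, by 3.57 ± 0.21 (SE) on the log2 scale or 11.9-fold (adjusted p = 2.9e-11), and ranked 129 among the genes tested by size of rise. S100a1 rose by 2.48 ± 0.10 (adjusted p = 2.1e-13) and S100a13 by 2.39 ± 0.09 (adjusted p = 3.1e-14). S100a11 rose by 2.11 ± 0.17 (4.32-fold, adjusted p = 2.9e-09) and S100b by 2.00 ± 0.07 (3.99-fold, adjusted p = 2.1e-14). S100a16 rose least, by 1.36 ± 0.12 or 2.56-fold (adjusted p = 1.3e-08). S100a6 lay below the filter in all 9 NSC libraries and entered only through astrocyte libraries, where it then had to be higher, so that its fitted change of 2.52 ± 0.24 is a description. The median change over all genes tested was 0.021. In 5 of the 6 genes with NSC values past the filter, all 9 astrocyte libraries lay above all 9 NSC libraries, which was so for 22.9% of genes tested. S100a16 was the exception, since its highest NSC library and its lowest astrocyte library both read 9.23, in the hippocampal and the EYFP line.

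Within each line the genes were tested again. In the tdTomato line the 6 genes other than S100a6 rose, against 39.9% of all genes, by 1.64 (S100a11) to 3.02 (S100a4). In the EYFP line the same 6 rose, against 37.5% of all genes, by 0.81 (S100a16) to 3.01 (S100a4), and S100a6 was not tested because only 2 of the 6 libraries reached the filter. In the hippocampal line they rose too, against 39.2% of all genes, by 1.33 (S100a16) to 4.69 (S100a4, 25.9-fold). S100a6, with NSC values under the filter, gave 2.45 in the tdTomato and 3.47 in the hippocampal line. S100b had the most even rise of the members, by 2.10 ± 0.10 in the tdTomato line, 1.99 ± 0.09 in the EYFP line and 1.90 ± 0.10 in the hippocampal line.

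**Figure D2:**
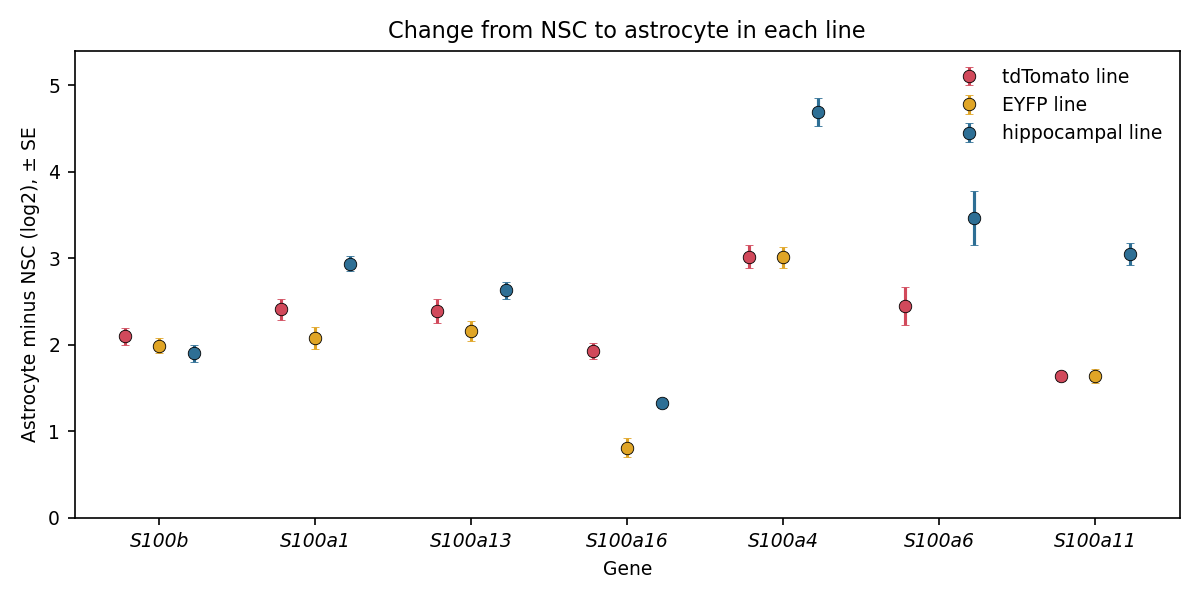
Astrocyte minus NSC on the log2 scale (vertical axis) for each S100 gene, as the limma estimate ± SE in each line (3 against 3 libraries). S100b differs little between lines, S100a4 and S100a11 rise more in the hippocampal line (4.69 and 3.05), and S100a6 of the EYFP line is missing because it was not tested there.

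The rise of S100a1, S100a4 and S100a11 was smaller in the traced lines than in the hippocampal line, by the test of the difference itself (interaction of fate and origin over 18 libraries). A negative difference was called for 19.9% of all genes, which counts both smaller rises and deeper falls in the traced lines. The difference was -1.68 ± 0.20 for S100a4 (adjusted p = 4.5e-06), -1.41 ± 0.13 for S100a11 (adjusted p = 3.7e-07) and -0.70 ± 0.15 for S100a1 (adjusted p = 0.0014). For S100b it was 0.14 ± 0.23 (adjusted p = 0.68), for S100a16 0.04 ± 0.32 (adjusted p = 0.93) and for S100a13 -0.35 ± 0.30 (adjusted p = 0.38). S100a6 gave -1.42 ± 0.39 (adjusted p = 0.0089), but with every NSC value under the filter this rests on its astrocyte values, which are compared between lines below. S100a4, S100a6 and S100a11 were all highest in replicate 1 of the hippocampal astrocytes. Without that library the differences were -1.46 for S100a4, -1.06 for S100a6 and -1.26 for S100a11, and all 3 were still called.

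Between the traced lines the rise differed for S100a16 alone among the 7. It was 1.93 ± 0.09 in the tdTomato line and 0.81 ± 0.11 in the EYFP line, a difference of 1.12 ± 0.16 (adjusted p = 9.4e-04), in a comparison in which 5.76% of all genes were called in that direction. The other 6 genes had differences of 0.01 to 0.81, of which that of S100a6, 0.81 ± 0.38 (adjusted p = 0.18), was the least precise.

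As NSCs, the traced lines differed from the hippocampal line in 5 of the 6 genes tested, 4 lower and 1 higher. Over all genes, 8.81% were called lower and 10.6% higher in traced NSCs, 2822 genes in all, a count that came to 4932 in a model of all 6 groups and to as few as 1657 without 1 library (hippocampal NSC replicate 3). S100a1 was lower by 1.49 ± 0.13, that is -1.49 on the log2 scale (2.81-fold, adjusted p = 3.9e-05). S100a16 differed by -1.0 ± 0.29 (adjusted p = 0.038), S100a13 by -0.84 ± 0.24 (adjusted p = 0.034) and S100a4 by -0.56 ± 0.12 (adjusted p = 0.0082). S100a11 was higher, by 0.98 ± 0.07 (1.98-fold, adjusted p = 1.0e-05). For S100b the difference was -0.01 ± 0.15 (adjusted p = 0.98), and S100a6 was below the filter in all NSC libraries and was not tested. This fit treats the tdTomato and EYFP libraries as 1 group, so that the gap between them, large for S100a13 and S100a16, widens the error. Their calls were lost without any 1 of the 3 hippocampal NSC libraries (adjusted p = 0.071 to 0.13), without tdTomato NSC replicate 1 or 3 (0.051 to 0.072) and, for S100a16, without tdTomato NSC replicate 2 (adjusted p = 0.062). Both were also lost with the replicate number as a block (adjusted p = 0.074 for S100a13 and 0.086 for S100a16) and without a filter (0.074 and 0.088), and that of S100a16 without a variance trend (adjusted p = 0.056). That of S100a4 was lost without hippocampal NSC replicate 3 (adjusted p = 0.051), while S100a1 and S100a11 were called with any 1 library left out. Astrocyte markers moved with these genes: of 8 tested, 5 were lower and 1 was higher in traced NSCs, with a summed log2 level of 15.20 to 15.95 there and 16.27 to 16.28 in hippocampal NSCs. Their part in the S100 differences was not tested.

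As astrocytes, 6 of the 7 genes were lower in the traced lines, against 27.9% of all genes called lower and 24.1% called higher. S100a4 differed by -2.24 ± 0.15 (4.72-fold, adjusted p = 1.1e-06), S100a1 by -2.18 ± 0.07 (4.54-fold, adjusted p = 9.3e-09) and S100a6 by -1.62 ± 0.32 (adjusted p = 0.0015). S100a13 differed by -1.19 ± 0.15 (adjusted p = 8.9e-05), S100a16 by -0.96 ± 0.09 (adjusted p = 8.5e-06) and S100a11 by -0.43 ± 0.10 (adjusted p = 0.0053). In each of these 6 genes all traced libraries lay below all hippocampal ones, which was so for 26.4% of genes tested. Without replicate 1 of the hippocampal astrocytes the difference of S100a11 was -0.27 (adjusted p = 0.013), that of S100a4 -2.02 and that of S100a6 -1.26. S100b, by contrast, gave 0.13 ± 0.16 (adjusted p = 0.50), with overlapping libraries. Of 4 ependymal markers with a row, 3 moved with these genes. Foxj1 and Rsph1 were lower in traced astrocytes, by -1.04 ± 0.07 (adjusted p = 1.1e-06) and -0.86 ± 0.12 (adjusted p = 1.6e-04), and Ccdc153, tested only through the hippocampal libraries, read 2.34 to 3.11 there against 5.65 to 6.02. Dnah12, under the filter throughout, had means of 2.37 in traced and 2.05 in hippocampal astrocytes. The list had a summed log2 level of 11.01 to 11.36 in both traced lines and 12.16 to 12.32 in the hippocampal line, most of it Foxj1 (means of 11.15 and 12.20). Of 8 astrocyte markers 5 were lower and 1 was higher in traced astrocytes, and their summed level was 17.28 to 17.73 there and 17.87 to 18.04 in hippocampal astrocytes. Of the 5 NSC and proliferation markers 3 were lower and 1 was higher in traced astrocytes (summed 13.31 to 13.51 against 14.35 to 14.60), with Nes at -2.67 ± 0.11. Of 6 oligodendrocyte lineage markers tested, 4 were higher and 2 lower there, 1 of the latter tested through the hippocampal libraries alone (summed 14.65 to 15.07 against 13.66 to 13.87). Their part in the S100 differences was not tested.

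**Figure D3:**
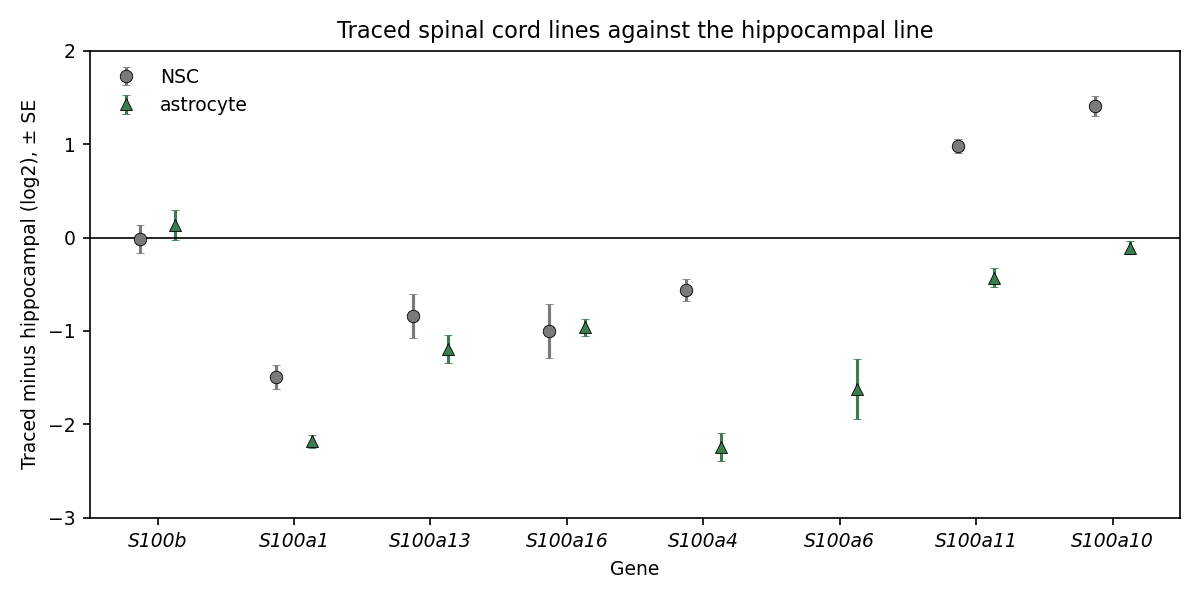
Traced minus hippocampal on the log2 scale (vertical axis, limma estimate ± SE, 6 against 3 libraries) for the 7 S100 genes and S100a10, with circles for NSCs and triangles for astrocytes. S100b lies near 0 in both fates, S100a1 lies lowest as NSCs, and S100a11 moves from 0.98 as NSCs to -0.43 as astrocytes; S100a6 has no NSC value because it was not tested there.

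Between the traced lines as NSCs, 2 genes were lower and 1 was higher in the tdTomato line, so that 3 of 6 tested were called in either direction, against 33.2% of all genes. S100a16 differed by -1.01 ± 0.10 (2.02-fold, adjusted p = 2.3e-04), S100a13 by -0.71 ± 0.16 (adjusted p = 0.011) and S100b by 0.40 ± 0.10 (adjusted p = 0.018). The call of S100b was lost without EYFP NSC replicate 1 (adjusted p = 0.057), tdTomato NSC replicate 2 (adjusted p = 0.067) or tdTomato NSC replicate 3 (adjusted p = 0.070), as well as without a filter (adjusted p = 0.10) and without a variance trend (adjusted p = 0.051). That of S100a13 was lost without a filter (adjusted p = 0.055). Astrocyte markers summed to 15.20 to 15.53 in tdTomato and 15.74 to 15.95 in EYFP NSCs, and ependymal markers to 9.45 to 9.79 and 10.28 to 10.33. NSC and proliferation markers went the other way, at 15.51 to 15.65 and 15.29 to 15.51. The part of these markers in the S100 differences was not tested. As astrocytes, S100b was higher by 0.50 ± 0.09 (adjusted p = 0.010) and S100a13 differed by -0.48 ± 0.09 (adjusted p = 0.011), against 5.60% of all genes higher and 5.63% lower. Both calls were lost when no filter was applied (adjusted p = 0.084 and 0.053), and that of S100b also without a variance trend (adjusted p = 0.051). S100a16 then gave 0.10 ± 0.11 (adjusted p = 0.62), S100a4 -0.16 ± 0.11 (adjusted p = 0.46), S100a11 0.03 ± 0.07 (adjusted p = 0.84), S100a1 0.04 ± 0.10 (adjusted p = 0.85) and S100a6 0.61 ± 0.26 (adjusted p = 0.19).

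The 6 S100a genes fall into 2 blocks of chromosome 3 that are about 3 Mb apart. S100a1, S100a13, S100a16 (chr3:90537254-90543151), S100a4 (chr3:90603771-90606045) and S100a6 (chr3:90612882-90624181) start within 98.5 kb. In traced astrocytes all 5 were lower than in hippocampal astrocytes, against 27.9% of all genes called lower. Any part of position in this was not tested. S100a3, which lies between S100a16 and S100a4, read 2.42 to 3.78 in traced and 4.34 to 4.88 in hippocampal astrocytes. It passed the filter there only with the hippocampal libraries, so that this is a description. Chtop, the next gene beyond S100a1 with values past the filter, differed by 0.03 between traced and hippocampal astrocytes and by -0.08 between the NSCs. The next ones, Snapin and Ilf2, differed by -0.12 and -0.10 as astrocytes, while Npr1, 48.5 kb from the S100a1 start, differed by -0.80. S100a11 (chr3:93520488-93526287) and S100a10 (chr3:93555080-93564643) form the other block, in which both genes were higher in traced NSCs, by 0.98 and 1.41, against 10.6% of all genes. Tchh, which starts before S100a11 and passes the filter, differed by 0.53 between the NSCs and by -0.34 between the astrocytes. S100a10 belongs to the same family, holds annexin A2 (Anxa2) in a complex and does not respond to calcium. Its means were 10.81 ± 0.02 in tdTomato NSCs, 10.45 ± 0.03 in EYFP NSCs and 9.22 ± 0.13 in hippocampal NSCs, and 12.54 ± 0.07, 12.54 ± 0.08 and 12.65 ± 0.16 in the astrocytes of the same lines (SD, n = 3). S100a10 thus stood higher in both traced lines as NSCs, by 1.41 ± 0.11 (adjusted p = 1.7e-05), while its difference in astrocytes was -0.11 ± 0.07 (adjusted p = 0.20).

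**Figure D4:**
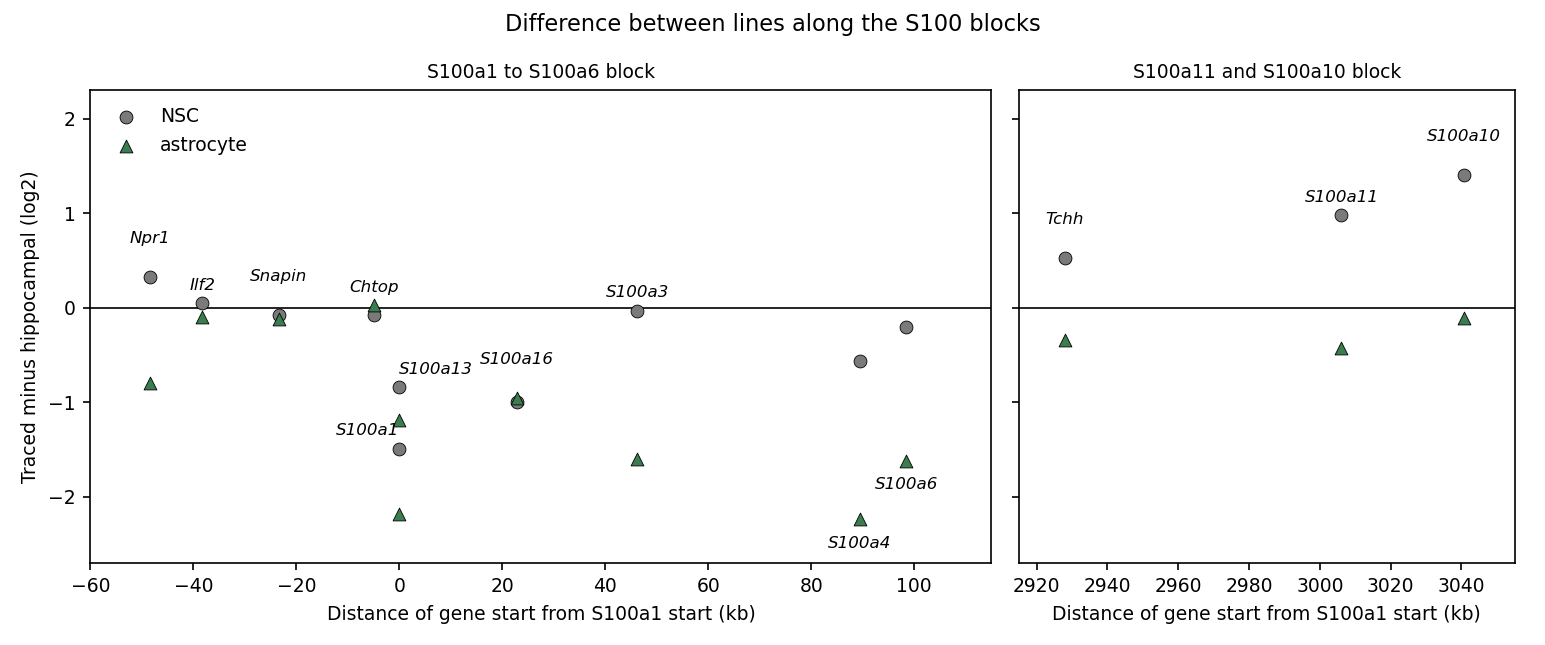
Difference of group means, traced minus hippocampal on the log2 scale (vertical axis), against the distance of the gene's start from that of S100a1 in kb (horizontal axis, 2 panels), for genes that pass the filter in the 18 libraries; circles are NSCs and triangles astrocytes. Within the block from S100a1 to S100a6 the astrocyte values lie between -2.24 and -0.96, Chtop next to it lies near 0, and S100a11 and S100a10 have positive NSC values. The NSC points of S100a3 and S100a6 lie below the filter and were not tested, and S100a3 passed it as astrocytes only with the hippocampal libraries.

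Over the 18 libraries, the neighbours S100a10 and S100a11 had the highest correlation of any pair of S100 genes that pass the filter (Pearson r = 0.99), and the head-to-head pair S100a1 and S100a13 had r = 0.96. S100a4 and S100a6, also neighbours, had r = 0.97, and the lowest value among the 7 genes was that of S100a11 with S100a16 (r = 0.66). These points share 2 fates and 3 lines, so that the values mostly describe the group means. For the deviations of each library from its group mean, r was 0.51 for S100a1 with S100a13, 0.68 for S100a10 with S100a11, 0.72 for S100a4 with S100a6 and 0.66 for S100a4 with S100a11. Replicate 1 of the hippocampal astrocytes was the highest library for S100a4 (11.47), S100a6 (6.09) and S100a11 (11.84), so that r between these genes leans on that library. Values without it were not computed. S100b gave between -0.47 and 0.16 with the other 6.

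Other genes with patterns most like those of the members were ranked among 12010 genes with a mean of at least 100 on the linear scale in 1 or more groups, by Pearson r over the 18 libraries. S100a4 was most like Ctsb (r = 0.997), Lpcat3 (0.995) and Dnajb2 (0.993). S100a13 was most like Scp2 (0.994), Cyp4v3 (0.990) and Ccdc157 (0.990), and S100a1 most like Zic5 (0.985), Gja1 (0.984) and Ppt1 (0.984). S100a11 was most like Pdlim7 (0.991), Frmpd3 (0.988) and Ric3 (0.988), its block neighbour S100a10 not being among the first 3. S100b was most like Dock8 (0.989), Cmtm4 (0.989) and Cd81 (0.986). S100a6 was most like Ccl7 (0.979), Map1lc3a (0.978) and Add3 (0.977), and S100a16 most like Palld (0.978), Cyfip1 (0.975) and AA986860 (0.971). Such values describe 6 groups of libraries and were not tested.

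To compare levels between genes, the log2 value was set per kb of merged exons. S100a11 was the highest of the 7 genes in every group, at 9.44 per kb in hippocampal NSCs to 12.49 in hippocampal astrocytes, and S100a6 the lowest, at 1.15 to 4.92. S100b was next to S100a11 in 5 groups, at 8.57 to 8.96 in NSCs and 10.56 to 11.06 in traced astrocytes. In hippocampal astrocytes S100a4, at 11.81, stood above S100b, at 10.67. In that group S100a1 and S100a13, both at 9.83, and S100a16, at 9.77, differed by less than their spread, as did S100a13 (6.71) and S100a4 (6.64) in EYFP NSCs. Parts of this order depend on the length used. With the longest principal transcript, S100a16 was at 8.96 in hippocampal NSCs, above S100b at 8.77, in place of 8.44 below it. In hippocampal astrocytes it was then at 10.29, above S100a1 (9.86) and S100a13 (9.83), and in EYFP NSCs S100a4, at 6.87, stood above S100a13 at 6.71.

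Summed over the 12 S100 genes with a row, on the linear scale per kb, S100a10 and S100a11 made up the largest part in every group. S100a4 was 5.84% ± 0.28 of the summed level in hippocampal NSCs and 19.0% ± 2.5 in hippocampal astrocytes, against 2.44% ± 0.29 and 5.52% ± 0.53 in the tdTomato line (SD, n = 3). S100a16 was 14.5% ± 0.27 in hippocampal NSCs and 4.58% ± 0.54 in hippocampal astrocytes, although its own level rose. S100b was 18.5% ± 2.9 and 8.62% ± 1.2 in the hippocampal line and 13.6% ± 1.6 and 16.4% ± 2.3 in the tdTomato line. With the longest principal transcript, S100a4 was 17.5% in hippocampal astrocytes and S100a10 38.7% in place of 27.8%.

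**Figure D5:**
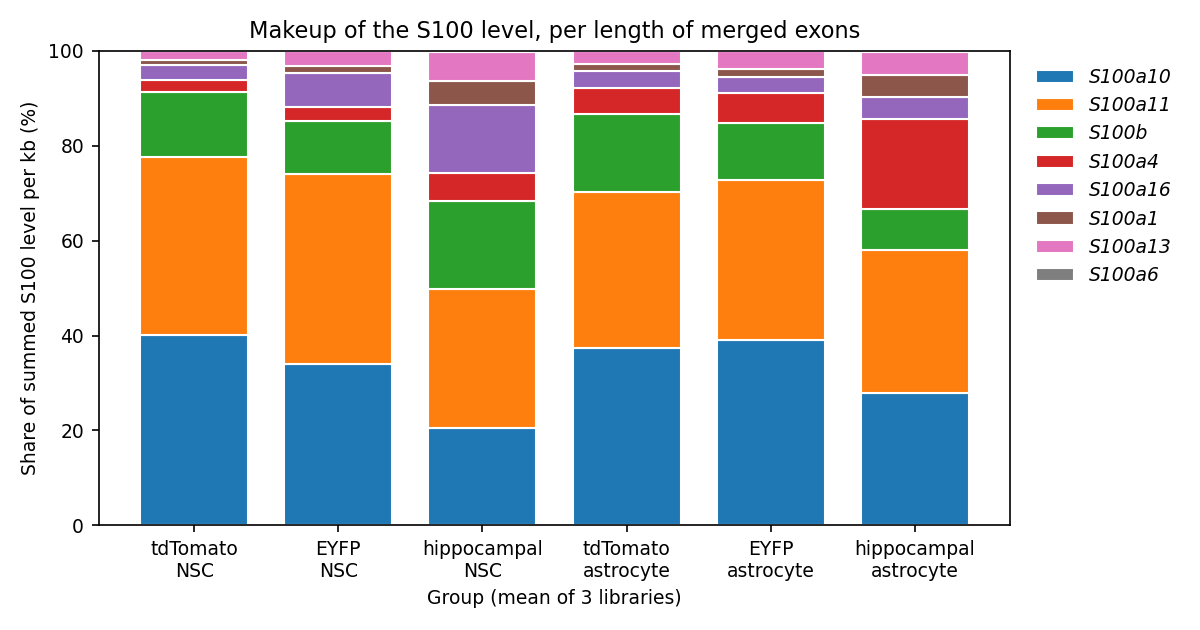
Share of the summed linear level per kb of merged exons (vertical axis, %) taken by 8 S100 genes in each group, as the mean of 3 libraries; the 4 S100 genes not drawn make up under 0.1% together. S100a4 takes 19.0% in hippocampal astrocytes and 2.44% to 6.42% in the 4 traced groups.

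Of the 5 other S100 genes with a row, S100a10 and S100a3 passed the filter. S100a10 rose by 2.42 ± 0.18 (5.35-fold, adjusted p = 8.6e-10). S100a3 passed only through astrocyte libraries, so that its change of 2.34 ± 0.24 is a description. It lay between 1.14 and 1.54 in NSCs and between 2.42 and 4.88 in astrocytes, with the 3 hippocampal astrocyte libraries the highest. S100a14, S100a7a and S100g never reached the filter, their highest values being 0.87, -1.36 and -1.87. S100a2, S100a5, S100a7l2, S100a8, S100a9 and S100z were not analysed here.

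Receptors, partners and targets of S100 proteins were followed as a list of 18 genes. Of 17 tested from NSC to astrocyte, 6 rose and 8 fell, against 42.1% and 39.8% of all genes, with a median change of -0.08. Of the 6, Anxa11 and Tlr4 lay under the filter in all NSC libraries and were tested only through astrocyte libraries, so that their direction was set by the filter. Ahnak, the giant scaffold that binds the S100a10 and Anxa2 complex, rose by 6.07 ± 0.16 (67.0-fold, adjusted p = 2.7e-16), from 6.51 to 12.57. Anxa1, the partner of S100a11, rose by 2.85 ± 0.21 (adjusted p = 5.7e-10) and Anxa2 by 1.71 ± 0.11 (adjusted p = 8.4e-11). Anxa11, which binds S100a6, lay at 1.20 to 2.29 in NSCs, under the filter, and at 1.28 to 4.43 in astrocytes. Cacybp, the calcyclin-binding protein, fell by 0.72 on the log2 scale (-0.72 ± 0.04, adjusted p = 6.2e-12), Trp53, which encodes p53, gave -1.0 ± 0.08 (adjusted p = 2.3e-09) and Mdm2 -0.49 ± 0.05 (adjusted p = 2.2e-08). Myh9, the myosin bound by S100a4, gave -0.16 ± 0.05 (adjusted p = 0.0063). Ager, the receptor RAGE, stayed low, at a mean of 4.54 in NSCs and 4.45 in astrocytes (-0.08 ± 0.13, adjusted p = 0.56). Il1a was below the filter throughout, and Fgf1, the other cargo of S100a13, gave 0.02 ± 0.23 (adjusted p = 0.94) over the lines together but moved in opposite directions within them, by 0.47 ± 0.17 in the tdTomato line (adjusted p = 0.030), 0.78 ± 0.10 in the EYFP line (adjusted p = 7.5e-05) and -1.19 ± 0.10 in the hippocampal line (adjusted p = 2.9e-06). The difference of its change, traced minus hippocampal, was 1.82 ± 0.43 (adjusted p = 0.0030).

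Between lines, Anxa2 was higher in traced cells in both fates, by 2.56 ± 0.12 as NSCs (5.90-fold, adjusted p = 4.1e-07) and 1.93 ± 0.14 as astrocytes (adjusted p = 1.5e-06), so that as astrocytes it differed where its partner S100a10 was not called. Tlr4 had a mean of 1.43 in traced astrocytes, under the filter in all 6 libraries, and 5.20 in hippocampal astrocytes, through which alone it was tested. Fgf1 was higher in traced astrocytes, by 1.87 ± 0.26 (adjusted p = 1.6e-04). In all, 2 of 15 genes of the list were higher and 1 was lower in traced NSCs, against 10.6% and 8.81% of all genes, and 3 of 17 were higher and 9 lower, Tlr4 among them, in traced astrocytes, against 24.1% and 27.9%. Anxa11, at 1.28 to 3.47 in traced and 3.35 to 4.43 in hippocampal astrocytes, likewise passed the filter there only with the hippocampal libraries, which set its direction.

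Other EF-hand proteins, the wider class to which S100 proteins belong, were compared as a list of 12. Of 10 tested, 5 rose and 3 fell, against 42.1% and 39.8% of all genes, with a median change of 0.12. Of the 5, Pvalb, the calcium buffer parvalbumin, had its direction set by the filter, at 1.84 to 2.91 in NSCs, all under it, and 4.16 to 6.82 in astrocytes. Efhd2 rose by 1.87 ± 0.16 (adjusted p = 4.6e-09). Hpcal1, a neuronal calcium sensor, gave -2.50 ± 0.06 (adjusted p = 8.5e-17). Calm2, which encodes calmodulin, fell by 0.88 on the log2 scale (-0.88 ± 0.06), and Calm3 rose by 0.27 ± 0.04. Against hippocampal astrocytes, 2 of the 9 tested were higher and 5 lower in traced astrocytes, against 24.1% and 27.9% of all genes, among them Pvalb at -1.72 ± 0.25 (adjusted p = 2.5e-04).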

How the data were processed

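RNA was measured in 18 libraries, 3 in each of 6 groups, grouped by their labels. The authors trimmed reads (Trimmomatic 0.36 per the labels), aligned them with STAR (2.5.2), estimated counts with RSEM (1.3.0) on Ensembl genes of GRCm38 and normalized them with DESeq2 (1.18.1). The deposited values are on a log2 scale and have the form of a regularized log, although the transform is not named. Such a transform draws weak genes towards their mean, which was not measured here, and with the depth not known no counting error can be attached. Labels and methods name different library kits, and the strand setting of the counting is not given in the sources used here.

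The 7 genes and all gene lists were chosen with earlier results of these data known. Ensembl IDs were matched to symbols for 27887 of 27997 genes. Genes reaching a log2 value of 3.32 (10 on the linear scale) in 3 or more compared libraries were tested with limma 3.58.1 (R 4.3.3) with a variance trend, on the deposited values, with Benjamini-Hochberg adjustment over all genes tested and a threshold of 0.05; the fits were tested on simulated data. Traced were compared with hippocampal libraries 6 against 3, tdTomato with EYFP 3 against 3, and differences of change as interactions. Named were all S100 genes with a row, listed genes that moved by 1 log2 unit or more or that a sentence needed, markers, and for each member the 3 genes with the highest Pearson r. Gene positions and exon lengths came from GENCODE M21 on GRCm38, promoters from RefSeq (GRCm38.p6). Alternatives covered the offset, filter, scaling, variance model, replicate block, a model of 6 groups and leaving out each library; a transcript length was added after seeing the data.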

Additional observations from a re-analysis of the deposited data

Results flagged for a closer look

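The change from NSC to astrocyte differed between traced and hippocampal lines, by the interaction test itself (limma over 18 libraries), for S100a4 (-1.68), S100a6 (-1.42), S100a11 (-1.41) and S100a1 (-0.70), each smaller in the traced lines. Between the tdTomato and EYFP lines it differed for S100a16 (1.12), whose rise was greater in the tdTomato line. Every NSC value of S100a6 lay under the filter on low values, so that its difference rests on the astrocyte libraries. The other 4 genes rose in each line, so that their differences are of size and not of direction.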

How the results depend on the processing

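No alternative reversed a member. Of 590 member values under other settings 578 kept their side of the threshold, and of 645 with 1 library left out 630 did. The count of members called in traced against hippocampal NSCs was 5 and came to 2 with a filter of 100 on the linear scale, to 3 without a filter and to 3 with the replicate block. S100a1, S100a4 and S100a13 do not pass the stricter filter there. Between traced NSCs the count was 3 and came to 1 without a filter, and between traced astrocytes it was 2 and came to 1 without a variance trend and 0 without a filter. With S100a6 counted wherever it was tested, leaving out 1 library gave 7 in the change over all lines, 6 to 7 in the tdTomato line, 6 in the EYFP line and 6 to 7 in the hippocampal line, where S100a6 then missed the filter. It gave 2 to 5 and 6 in traced against hippocampal NSCs and astrocytes, 2 to 3 and 2 between traced NSCs and astrocytes, and 4 and 1 in the differences of change.

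The replicate block lost the calls of S100a13 (adjusted p = 0.074) and S100a16 (adjusted p = 0.086) in traced against hippocampal NSCs and no other member's. Nothing in the labels ties same-numbered libraries together, while the study's methods tie replicates to passages without saying which number is which passage. The deviations of same-numbered libraries from the group means correlated at -0.105 to 0.102 between fates of a line and at -0.026 to 0.425 between lines of a fate, and 14 of 18 libraries correlated best with their own number. Over all genes, the block moved the calls between traced astrocytes from 1641 to 3049, no filter moved them to 975 and those between traced NSCs from 4748 to 2970, and the model of 6 groups moved those in traced against hippocampal NSCs from 2822 to 4932. With 1 library left out, these counts came to as few as 936, 2719 and 1657, and the interaction of the traced lines, 1781 genes, to 1055. The model of 6 groups also called S100a1 between traced NSCs (-0.29, adjusted p = 0.036). The cause was not tested. The depth is unknown.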
